A study of Mus musculus with 15 samples.

Results

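The genes examined here encode the proteins of the cytosolic ribosome. They were taken by symbol, as every gene named *Rpl* or *Rps* with a number and at most one further letter a, x or y, together with *Rplp0*, *Rplp1*, *Rplp2* and *Rpsa*. The rule found 76 of the 38924 genes in the files, 30 of the small subunit and 46 of the large subunit, and no symbol matched it more than once. One symbol was corrected. The files give the symbol *Rpl24* to ENSMUSG00000022601, which the GENCODE M21 annotation names *Zbtb11*, a zinc finger gene, and they spell the symbol of the true *Rpl24*, ENSMUSG00000098274, in capitals. The true gene was used here, and the other 75 symbols matched the annotation. Of the 76 genes, 75 were among the 14967 genes with enough counts to be tested. The remaining one, *Rps12*, was listed at 0 in every library. The cells were CD11b-positive brain myeloid cells of male B6 wild-type mice aged 12 months, sorted into a fraction with high and a fraction with low surface CD45. The mice ate a control chow diet (CD) or a western diet (WD), rich in fat and sugar. There were 4 libraries of CD45hi and 4 of CD45lo cells from CD-fed mice, and 3 of CD45hi and 4 of CD45lo cells from WD-fed mice. CD11b and CD45 do not single out one cell type. The CD45lo fraction is mainly microglia, and the CD45hi fraction can hold activated microglia, macrophages and blood leukocytes. The study's data statement describes its read counts as given per animal, and the labels do not say which CD45hi and CD45lo libraries came from the same mouse.

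A ribosome is built from ribosomal RNA and one copy of most ribosomal proteins, so cells need these proteins in matched amounts. The small subunit decodes the mRNA, the large subunit joins amino acids, and a stalk of acidic proteins on the large subunit recruits elongation factors. In mammals the mRNAs of these proteins belong to the 5′ terminal oligopyrimidine (TOP) class. Such an mRNA begins with a C followed by a run of pyrimidines, through which the mTORC1 kinase pathway adjusts its translation. The genes have also left many retrocopies in the genome, most of them processed pseudogenes, which matters for assigning reads.

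The start of the mRNA, where the TOP run stands, is shown for 5 members with such a run and 2 without, chosen among the members described further on. In the RefSeq promoter table (GRCm38.p6), 56 members were found, with 66 annotated starts. The windows run from 15 bases before the annotated start to 15 bases from it on, 5′ to 3′ on the gene's strand, and capitals mark the unbroken run of C and T that covers the start or a base beside it.
Rps21: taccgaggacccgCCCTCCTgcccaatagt
Rps24: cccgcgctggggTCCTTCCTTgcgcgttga
Rps27: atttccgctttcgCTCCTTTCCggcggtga
Rpl35: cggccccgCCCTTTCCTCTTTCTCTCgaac
Rpl38: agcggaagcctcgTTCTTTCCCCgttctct
Rplp0: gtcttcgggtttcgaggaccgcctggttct
Rpl37: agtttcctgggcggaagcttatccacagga
The windows of *Rps21*, *Rps24*, *Rps27*, *Rpl35* and *Rpl38* lie at chr2:180257364-180257393 (+), chr14:24490663-24490692 (+), chr3:90213634-90213663 (-), chr2:39005117-39005146 (-) and chr11:114668565-114668594 (+). Those of *Rplp0* and *Rpl37* lie at chr5:115559452-115559481 (+) and chr15:5116598-5116627 (+), and no C or T stands at their annotated start or beside it. *Rps21* and *Rps24* each have a second annotated start without a long run. A run of at least 6 pyrimidines across the start was present for 22 of the 56 members (39.3%) and for 3885 of all 27025 genes in the table (14.4%). An annotated start can lie some bases from the one used in these cells, so that the share is a description of the annotation. Over the 250 bases before the start, read on both strands, the letters CCGGAAG were found for 17 members (30.4%, 7.83% of all genes). GGGCGG was found for 28 members (50%, 35.4% of all genes), AAGATGG for 5 (8.93%, 5.18%) and TATAAA for 3 (5.36%, 14.3%).

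Each library held 11951412 to 17912272 expected counts, of which 78698 to 232158 fell on the 76 genes. The smallest measurable level, taken as 3 counts, was 0.156 to 0.282 cpm (counts of a gene scaled to the size of its library, with TMM normalization), far below nearly all levels given here. The fractions differed in their makeup. The summed level of 6 microglial markers was 5348 to 6500 cpm in CD45hi and 13723 to 14479 cpm in CD45lo cells of CD-fed mice, and 5993 to 6347 against 11360 to 14012 cpm in WD-fed mice, and all 6 were lower in CD45hi cells on both diets. That of 5 monocyte markers was 366 to 744 against 12.4 to 41.3 cpm and 407 to 714 against 11.2 to 50.8 cpm, and that of 5 neutrophil markers was 666 to 2737 against 73.1 to 636 and 453 to 1532 against 60.4 to 181 cpm. In each of these lists 4 of the 5 markers were higher in CD45hi cells on both diets. Natural killer markers summed to 14.9 to 150.13 cpm in CD45hi cells and to at most 2.60 cpm in CD45lo cells, with 3 of 5 higher. Of the few T and B cell markers tested, 0 were called on the CD, and 1 of 2 and 2 of 4 were higher on the WD. Among 15 markers of neurons, astrocytes, oligodendrocytes, endothelial and red blood cells, an astrocyte marker was lower in CD45hi cells on the CD and an oligodendrocyte marker higher on the WD. Their part in the differences below was not tested. In bulk RNA, a larger share of cells rich in a transcript cannot be told apart from more of it per cell.

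The summed level of the ribosomal protein genes was higher in CD45hi than in CD45lo cells on both diets. In CD-fed mice the 76 genes took 1.04, 1.01, 1.03 and 1.31% of all expected counts in the CD45hi libraries and 0.638, 0.663, 0.754 and 0.664% in the CD45lo libraries. In WD-fed mice they took 1.16, 1.18 and 1.15% in CD45hi and 0.621, 0.643, 0.701 and 0.744% in CD45lo libraries. The fractions did not overlap on either diet, and replicate 4 of the CD45hi cells from CD-fed mice stood above all others. The group means were 1.10 ± 0.141% (SD, n = 4) against 0.680 ± 0.0507% (SD, n = 4) on the CD and 1.16 ± 0.0134% (SD, n = 3) against 0.678 ± 0.0559% (SD, n = 4) on the WD. Small-subunit genes contributed 0.442 and 0.253% on the CD and 0.466 and 0.249% on the WD, in CD45hi and CD45lo cells in that order. Large-subunit genes contributed 0.655 and 0.427%, and 0.698 and 0.429%. Mitochondrially encoded genes also took more of the counts in CD45hi (17.7 to 20.5%) than in CD45lo libraries (7.99 to 10.9%). Without them in the total, the members took 1.34 ± 0.167% and 0.754 ± 0.0549% on the CD and 1.44 ± 0.0404% and 0.751 ± 0.0708% on the WD (SD, n = 4, 4, 3 and 4).

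**Figure D1:**
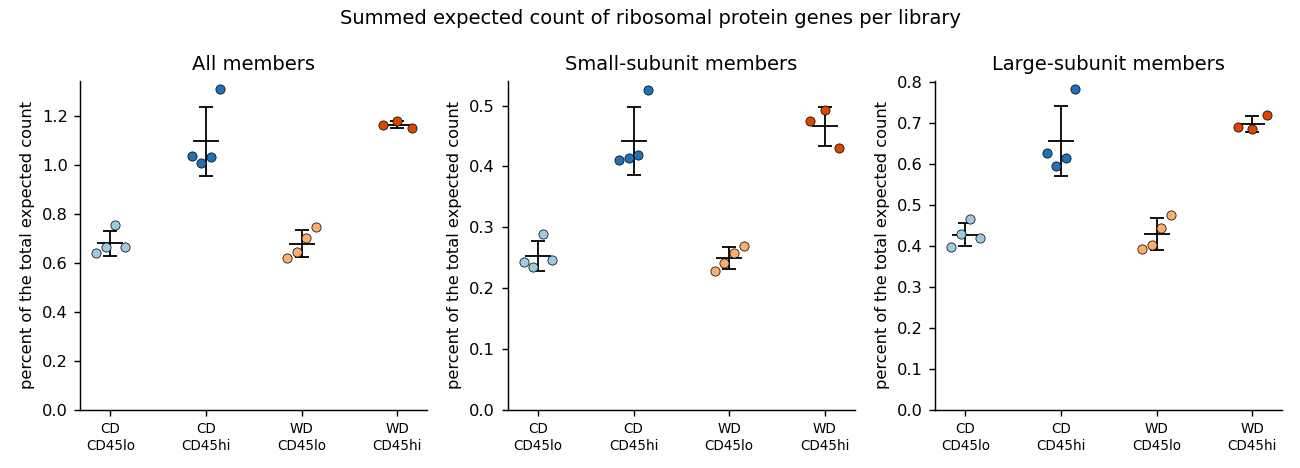
Share of the total expected count, in percent, taken by the 76 ribosomal protein genes in each library, by diet and CD45 level. Points are libraries, and the bar with its whiskers is the group mean ± SD. All 7 CD45hi libraries lie at 1.01% or above and all 8 CD45lo libraries at 0.754% or below.

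Between the cell fractions of CD-fed mice, 56 of the 75 tested genes were higher in CD45hi cells at an FDR under 0.05 (edgeR quasi-likelihood F test, Benjamini-Hochberg over all tested genes) and 0 were lower (2.08% of all genes). Over all 14967 genes, 8.03% were called, 5.95% as higher. The median log2 fold change of the members was 1.00, or 2.00-fold, against 0.04 over all tested genes, and 72 of the 75 were above 0 (51.8% of all genes). For 61 members every CD45hi library was above every CD45lo library, a pattern shown by 8.26% of all genes, and for 0 the reverse held (8.22%). An unadjusted p under 0.05 was found for 69 members (20.1% of all genes), and DESeq2 called 66 (12.4%). Small-subunit genes had a median of 1.10, with 22 of 29 called, and large-subunit genes one of 0.87, with 34 of 46 called. A difference of more than 1.5-fold was supported for 22 members, all higher (glmTreat, 3.98% of all genes, 3.39% as higher). This last count was 10 without replicate 4 of the CD45hi libraries, 11, 10 and 10 without replicates 1, 2 and 4 of the CD45lo libraries of CD-fed mice, and 10 to 25 over all left-out libraries. In the same fits 499, and 429, 412 and 435, of all genes passed 1.5-fold, against 595 with all libraries. Across the left-out libraries that number ran from 412 to 705. The count of 56 ran from 40 to 60, and that of all genes from 781 to 1441, against 1202. With the symbol *Rpl24* read as the files give it, 55 members would be called on each diet.

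In WD-fed mice, 56 of the 75 genes were also higher in CD45hi cells and 0 were lower (2.9% of all genes), where 9.12% of all genes were called, 6.22% as higher. The median log2 fold change was 1.15, or 2.21-fold, against 0.00 over all genes, and all 75 values were above 0 (50% of all genes). The fractions did not overlap for 61 members, all with the CD45hi libraries above, as for 10% of all genes (13.4% showed the reverse). An unadjusted p under 0.05 was found for 67 members (24.5% of all genes), and DESeq2 called 65 (15.8%). The median was 1.24 for small-subunit genes, of which 23 of 29 were called, and 1.11 for large-subunit genes, of which 33 of 46 were called. More than 1.5-fold was supported for 37 members, all higher (5.18% of all genes, 4.01% as higher), and for 23 when replicate 1 of the CD45lo libraries of WD-fed mice was left out. Without that library 515 of all genes passed 1.5-fold, against 775 with all libraries. The counts of members ran from 46 to 59 and, past 1.5-fold, from 23 to 41 over all left-out libraries. Those of all genes ran from 957 to 1758 and, past 1.5-fold, from 513 to 920.

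The calls of the diets shared most members. Of all genes, 8.03% were called on the CD and 9.12% on the WD (3.98 and 5.18% past 1.5-fold). The share of all genes called on both diets was not counted, so the members' overlap has no such share beside it. There were 50 genes called on both diets, with log2 fold changes from 0.54 to 1.69 on the CD and 0.61 to 1.99 on the WD. The genes *Rpl10*, *Rpl27*, *Rpl29*, *Rpl7a*, *Rplp2* and *Rps27* were called on the CD alone, and *Rpl22*, *Rpl36a*, *Rpl6*, *Rpl8*, *Rps13* and *Rps2* on the WD alone. The other 13 passed on neither diet, with values from -0.21 to 1.45 on the CD and 0.12 to 1.29 on the WD. These were *Rpl10a*, *Rpl12*, *Rpl15*, *Rpl27a*, *Rpl28*, *Rpl5*, *Rpl7*, *Rplp1*, *Rps16*, *Rps20*, *Rps26*, *Rps27a* and *Rps6*. More than 1.5-fold was supported on both diets for 19 genes, among them *Rpl17*, *Rpl32*, *Rpl35a*, *Rpl36*, *Rpl37*, *Rpl37a*, *Rpl38*, *Rpl39*, *Rpl41*, *Rps15a*, *Rps19*, *Rps21*, *Rps24*, *Rps25*, *Rps3* and *Rpsa*. The values of these ran from 1.07 to 1.69 on the CD and 1.15 to 1.99 on the WD. It was supported for *Rpl29*, *Rps14* and *Rps27* on the CD alone. On the WD alone it was supported for 18 genes (among them *Rpl13a*, *Rpl21*, *Rpl23*, *Rpl26*, *Rpl30*, *Rpl31*, *Rpl35*, *Rpl6*, *Rpl8*, *Rpl9*, *Rplp0*, *Rps18*, *Rps2*, *Rps23*, *Rps29* and *Rps9*), at 1.09 to 1.89. Across the 75 genes the values of the diets, which come from different libraries but share each gene's length and copies, had a Pearson correlation of 0.64 and a Spearman correlation of 0.59. Genes with and without the pyrimidine run had medians of 1.02 and 0.93 on the CD (17 of 22 and 24 of 33 called) and of 1.08 and 1.23 on the WD (14 of 22 and 27 of 33 called).

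**Figure D2:**
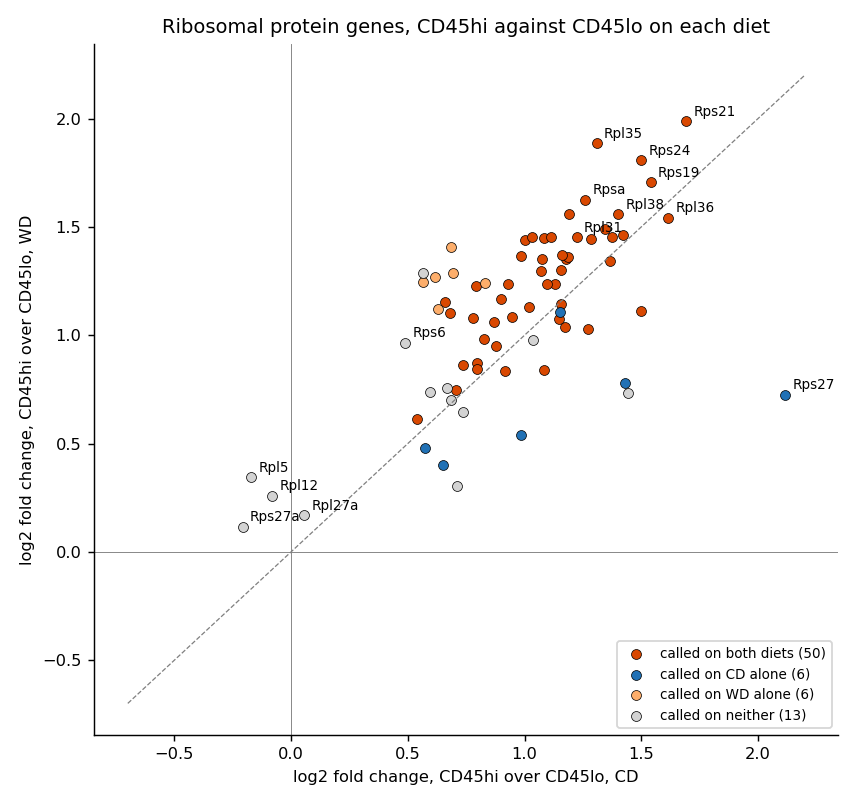
Log2 fold change between CD45hi and CD45lo cells for the 75 tested ribosomal protein genes, in CD-fed mice on the horizontal and in WD-fed mice on the vertical axis, with points marked by the diets on which the gene was called. All but 3 values lie above 0 on the horizontal axis and all 75 on the vertical axis.

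Among the small-subunit genes, *Rps21* (ENSMUSG00000039001, chromosome 2 from 180257377 to 180258445) encodes a protein needed for the last steps of small-subunit rRNA processing, and its positions, like those below, are on mm10. In CD-fed mice *Rps21* was at 110.3, 103, 158 and 233 cpm in the CD45hi and 40.4, 41.2, 62.9 and 42.6 cpm in the CD45lo libraries. In WD-fed mice *Rps21* was at 209.8, 176 and 208 cpm in CD45hi and 43.1, 47.05, 54.6 and 54.6 cpm in CD45lo libraries. The fractions did not overlap, although replicate 3 of the CD45lo cells from CD-fed mice was above the other 3. The log2 fold change was 1.69 (SE 0.250, FDR = 0.000244) on the CD and 1.99 (SE 0.264, FDR = 9.65e-05) on the WD, the largest of all members on the WD. *Rps24* (ENSMUSG00000025290, chromosome 14 from 24487125 to 24496959) and *Rps19* encode proteins mutated in inherited Diamond-Blackfan anaemia. In CD-fed mice *Rps24* was at 244, 268, 344 and 387 cpm in the CD45hi and 113, 98.1, 136 and 92.3 cpm in the CD45lo libraries. In WD-fed mice *Rps24* was at 457, 446 and 317 cpm in CD45hi and 109.8, 107, 116 and 131 cpm in CD45lo libraries. The fractions did not overlap, and the log2 fold change was 1.50004 (SE 0.187, FDR = 5e-05) on the CD and 1.81 (SE 0.198, FDR = 1.34e-05) on the WD. *Rps19* (ENSMUSG00000040952, chromosome 7 from 24884371 to 24889806) was at 63.4, 89.8, 72.5 and 138 cpm in CD45hi and 27.4, 32.9, 33.9 and 30.9 cpm in CD45lo libraries of CD-fed mice. On the WD it was at 75.6, 153 and 65.6 cpm in CD45hi and 22.7, 32.3, 31.2 and 34.2 cpm in CD45lo libraries. Again every CD45hi library was above every CD45lo library, with log2 fold changes of 1.54 (SE 0.305, FDR = 0.00325) on the CD and 1.71 (SE 0.323, FDR = 0.00220) on the WD.

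*Rpsa* (ENSMUSG00000032518, chromosome 9 from 120127689 to 120132369) encodes a small-subunit protein that is also known as the laminin receptor. In CD-fed mice *Rpsa* was at 162, 116, 103 and 161 cpm in the CD45hi and 45.3, 72.2, 63.5 and 45.1 cpm in the CD45lo libraries. In WD-fed mice *Rpsa* was at 177, 197 and 158 cpm in CD45hi and 50.6, 52.02, 56.7 and 70.5 cpm in CD45lo libraries. All CD45hi libraries were above all CD45lo libraries, and *Rpsa* rose by 1.26 on the CD and 1.63 on the WD (log2, FDR = 0.00111 and 0.000185). *Rps3*, at the channel where mRNA enters the ribosome, had log2 fold changes of 1.10 (SE 0.174, FDR = 0.000467) on the CD and 1.24 (SE 0.184, FDR = 0.000258) on the WD. For *Rps4x*, an X-linked gene and the member with the highest mean TPM over all 15 libraries, they were smaller, 0.74 (SE 0.130, FDR = 0.00123) on the CD and 0.86 (SE 0.138, FDR = 0.000515) on the WD. *Rps27* (ENSMUSG00000090733, chromosome 3 from 90212522 to 90213651) encodes a zinc-binding protein. In CD-fed mice *Rps27* was at 66.4, 28.7, 32.2 and 45.4 cpm in the CD45hi and 12.9, 11.5, 8.79 and 6.64 cpm in the CD45lo libraries. In WD-fed mice *Rps27* was at 15.6, 40.5 and 23.5 cpm in CD45hi and 10.03, 10.8, 16.9 and 26.4 cpm in CD45lo libraries. The CD45lo libraries of WD-fed mice reached into the range of the CD45hi libraries, while on the CD the fractions did not overlap. The log2 fold change was 2.12 (SE 0.445, FDR = 0.00520) on the CD and 0.73 (SE 0.458, FDR = 0.360) on the WD. *Rps27* had the largest value of all members on the CD and did not pass on the WD, and the interaction with diet had an FDR of 0.472. The copy *Gm9846*, with the same coding sequence as *Rps27*, had a mean of 1202 counts, and the values with copies summed are given below.

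*Rps14* (ENSMUSG00000024608, chromosome 18 from 60747098 to 60778546) is the mouse counterpart of the gene whose loss of a copy impairs red cell formation in the human 5q- syndrome. In CD-fed mice *Rps14* was at 134, 85.5, 161 and 215 cpm in CD45hi and 41.1, 50.8, 63.9 and 55.04 cpm in CD45lo libraries. In WD-fed mice *Rps14* was at 98.6, 124 and 111 cpm in CD45hi and 35.3, 57.6, 63.5 and 48.9 cpm in CD45lo libraries. The fractions did not overlap, and the log2 fold change was 1.4992 (SE 0.267, FDR = 0.00136) on the CD and 1.11 (SE 0.281, FDR = 0.0170) on the WD. *Rps15a* and *Rps25*, the latter needed for initiation at some viral RNAs, rose on both diets. Their log2 fold changes were 1.07 and 1.15 on the CD and 1.35 and 1.15 on the WD. The small-subunit genes *Rps7*, *Rps9*, *Rps10*, *Rps15*, *Rps18*, *Rps23*, *Rps28* and *Rps29* also rose on both diets. They ran from 0.91 for *Rps10* to 1.29 for *Rps28* on the CD and from 0.83 for *Rps10* to 1.45 for *Rps29* on the WD. The small-subunit genes called on neither diet, besides *Rps6* and *Rps27a*, were *Rps16*, *Rps20* and *Rps26*. Their log2 fold changes were 1.45, 0.59 and 0.67 on the CD (FDR = 0.0687, 0.204 and 0.0716) and 0.73, 0.74 and 0.76 on the WD (FDR = 0.393, 0.111 and 0.0510).

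Of the large-subunit genes, *Rpl35* (ENSMUSG00000062997, chromosome 2 from 39001580 to 39005624) encodes a protein at the exit of the tunnel through which the new chain leaves. In CD-fed mice *Rpl35* was at 28.4, 26.7, 35.5 and 48.02 cpm in the CD45hi and 10.6, 14.2, 17.6 and 13.6 cpm in the CD45lo libraries. In WD-fed mice *Rpl35* was at 55.97, 64.9 and 44.5 cpm in CD45hi and 9.05, 12.6, 18.6 and 19.4 cpm in CD45lo libraries. Every CD45hi library was above every CD45lo library. The log2 fold change was 1.31 (SE 0.341, FDR = 0.0236) on the CD and 1.89 (SE 0.363, FDR = 0.00253) on the WD. It held 49.7% of the counts of its family, most of the rest lying on the near-identical gene *Gm2000*. *Rpl38* (ENSMUSG00000057322, chromosome 11 from 114668524 to 114672331) encodes a small protein that favours the translation of certain homeobox mRNAs in the embryo. In CD-fed mice *Rpl38* was at 55.3, 44.4, 75.5 and 103 cpm in the CD45hi and 26.4, 22.2, 35.96 and 20.6 cpm in the CD45lo libraries. In WD-fed mice *Rpl38* was at 76.9, 84.5 and 60.04 cpm in CD45hi and 20.9, 22.1, 27.1 and 30.2 cpm in CD45lo libraries. Every CD45hi library exceeded every CD45lo library, with log2 fold changes of 1.40 (SE 0.298, FDR = 0.00571) on the CD and 1.56 (SE 0.316, FDR = 0.00378) on the WD. *Rpl17* and *Rpl39*, both at the exit tunnel, *Rpl36*, and *Rpl41*, the shortest ribosomal protein, rose on both diets. Their log2 fold changes were 1.19, 1.18, 1.61 and 1.42 on the CD and 1.56, 1.35, 1.54 and 1.46 on the WD.

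*Rpl36* (ENSMUSG00000057863, chromosome 17 from 56613416 to 56614243) had the largest log2 fold change of the large-subunit genes on the CD. In CD-fed mice *Rpl36* was at 106, 78.5, 89.2 and 191 cpm in CD45hi and 39.2, 31.2, 40.1 and 41.2 cpm in CD45lo libraries. In WD-fed mice *Rpl36* was at 113, 146 and 76.8 cpm in CD45hi and 30.03, 35.99, 43.2 and 44.2 cpm in CD45lo libraries. All CD45hi libraries were above all CD45lo libraries. *Rpl41* (ENSMUSG00000093674, chromosome 10 from 128548114 to 128549305) was also higher without overlap. In CD-fed mice *Rpl41* was at 140.2, 159, 89.8 and 192 cpm in CD45hi and 43.01, 68.9, 55.7 and 49.2 cpm in CD45lo libraries. In WD-fed mice *Rpl41* was at 169, 184 and 155 cpm in CD45hi and 50.6, 55.4, 63.4 and 76.3 cpm in CD45lo libraries. *Rpl24* (ENSMUSG00000098274, chromosome 16 from 55966275 to 55971435), whose protein bridges the subunits, is given because its symbol was corrected. In CD-fed mice *Rpl24* was at 152, 110.1, 162 and 149.99 cpm in CD45hi and 86.95, 70.3, 92.01 and 63.4 cpm in CD45lo libraries. In WD-fed mice *Rpl24* was at 182, 128 and 132 cpm in CD45hi and 60.1, 75.8, 86.2 and 82.7 cpm in CD45lo libraries. *Rpl24* rose without overlap, with log2 fold changes of 0.88 (SE 0.200, FDR = 0.00975) on the CD and 0.95 (SE 0.213, FDR = 0.00796) on the WD. The gene that carries its symbol in the files, *Zbtb11*, had values of 0.07 and -0.58 (FDR = 0.937 and 0.262).

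*Rpl10*, whose protein is among the last to join the large subunit, was called on the CD alone, with log2 fold changes of 0.57 (SE 0.156, FDR = 0.0310) on the CD and 0.48 (SE 0.167, FDR = 0.0835) on the WD. Its copy *Rpl10-ps1*, with the same coding sequence, had a mean of 3182 counts. With copies summed, the CD45hi libraries were at 762 to 1081 cpm and the CD45lo libraries at 437 to 485 cpm on the CD. On the WD these sums were 785 to 798 and 465 to 618 cpm, also without overlap. Further large-subunit genes rose on both diets. Among them were *Rpl3*, which lies close to the site of peptide bond formation, *Rpl4*, which lines the exit tunnel, and *Rpl9*, *Rpl13*, *Rpl14*, *Rpl18*, *Rpl19*, *Rpl21*, *Rpl23*, *Rpl23a*, *Rpl26*, *Rpl30*, *Rpl31*, *Rpl32*, *Rpl34*, *Rpl35a*, *Rpl37* and *Rpl37a*. Their values ran from 0.54 for *Rpl3* to 1.37 for *Rpl35a* on the CD and from 0.61 for *Rpl3* to 1.49 for *Rpl37a* on the WD. *Rpl6*, *Rpl8* and *Rpl36a* were called on the WD alone, at 1.12, 1.27 and 1.41, and had values of 0.63, 0.62 and 0.68 on the CD. *Rpl7a* and *Rpl27* were called on the CD alone, at 0.65 and 1.15, and had values of 0.40 and 1.11 on the WD. No gene called on a single diet passed the interaction test. The uncalled *Rpl7*, *Rpl10a*, *Rpl15* and *Rpl28* had values of 0.69, 0.74, 0.56 and 1.04 on the CD and 0.70, 0.65, 1.29 and 0.98 on the WD.

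Of the 3 stalk genes, *Rplp0* was called on both diets, *Rplp2* on the CD alone and *Rplp1* on neither. *Rplp0* (ENSMUSG00000067274, chromosome 5 from 115559467 to 115563727) encodes the base of the stalk, on which the proteins of *Rplp1* and *Rplp2* sit in pairs. Its level was 164, 193, 190.2 and 245 cpm in CD45hi and 102, 98.2, 119.5 and 96.6 cpm in CD45lo libraries on the CD. On the WD it was 184, 225 and 241 cpm in CD45hi and 78.02, 86.002, 98.2 and 105 cpm in CD45lo libraries. *Rplp0* rose without overlap on both diets, with log2 fold changes of 0.93 (SE 0.170, FDR = 0.00169) on the CD and 1.24 (SE 0.181, FDR = 0.000231) on the WD. *Rplp2* (ENSMUSG00000025508, chromosome 7 from 141447370 to 141451585) was at 116, 105, 118 and 168 cpm in CD45hi and 53.9, 70.6, 78.5 and 53.7 cpm in CD45lo libraries on the CD. On the WD it was at 121, 117 and 65.1 cpm in CD45hi and 47.8, 50.1, 84.5 and 95.7 cpm in CD45lo libraries, which overlapped. Its log2 fold change was 0.98 (SE 0.275, FDR = 0.0351) on the CD and 0.54 (SE 0.293, FDR = 0.277) on the WD, and that of *Rplp1* was 0.71 (SE 0.284, FDR = 0.155) on the CD and 0.30 (SE 0.304, FDR = 0.604) on the WD. The differences between the diets were not called for any of the 3 (interaction FDR = 0.729, 0.801 and 0.768).

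*Rpl5* and *Rpl11* encode proteins that enter the large subunit together and that can bind the p53 regulator Mdm2 when assembly fails. *Rpl11* (ENSMUSG00000059291, chromosome 4 from 136028265 to 136053428) was at 119.8, 94.6, 118 and 104 cpm in CD45hi and 54.4, 70.5, 60.2 and 66.4 cpm in CD45lo libraries on the CD. In WD-fed mice it was at 133, 119 and 114 cpm in CD45hi and 55.3, 59.7, 69.6 and 81.8 cpm in CD45lo libraries. *Rpl11* rose without overlap, with log2 fold changes of 0.80 (SE 0.185, FDR = 0.0112) on the CD and 0.87 (SE 0.198, FDR = 0.00857) on the WD. With its copies, which held over 50% of the family's counts, the values were 0.75 and 1.01. *Rpl5* had log2 fold changes of -0.17 (SE 0.416, FDR = 0.886) on the CD and 0.34 (SE 0.447, FDR = 0.707) on the WD. *Rpl13a*, whose protein can leave the ribosome and repress inflammatory mRNAs in interferon-treated myeloid cells, had log2 fold changes of 0.98 (SE 0.176, FDR = 0.00139) on the CD and 1.37 (SE 0.188, FDR = 0.000129) on the WD. *Rpl22*, which is needed for T cell development, had log2 fold changes of 0.83 (SE 0.300, FDR = 0.109) on the CD and 1.24 (SE 0.320, FDR = 0.0193) on the WD. *Rpl29*, whose product also binds heparin, had log2 fold changes of 1.43 (SE 0.239, FDR = 0.000778) on the CD and 0.78 (SE 0.252, FDR = 0.0641) on the WD.

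**Figure D3:**
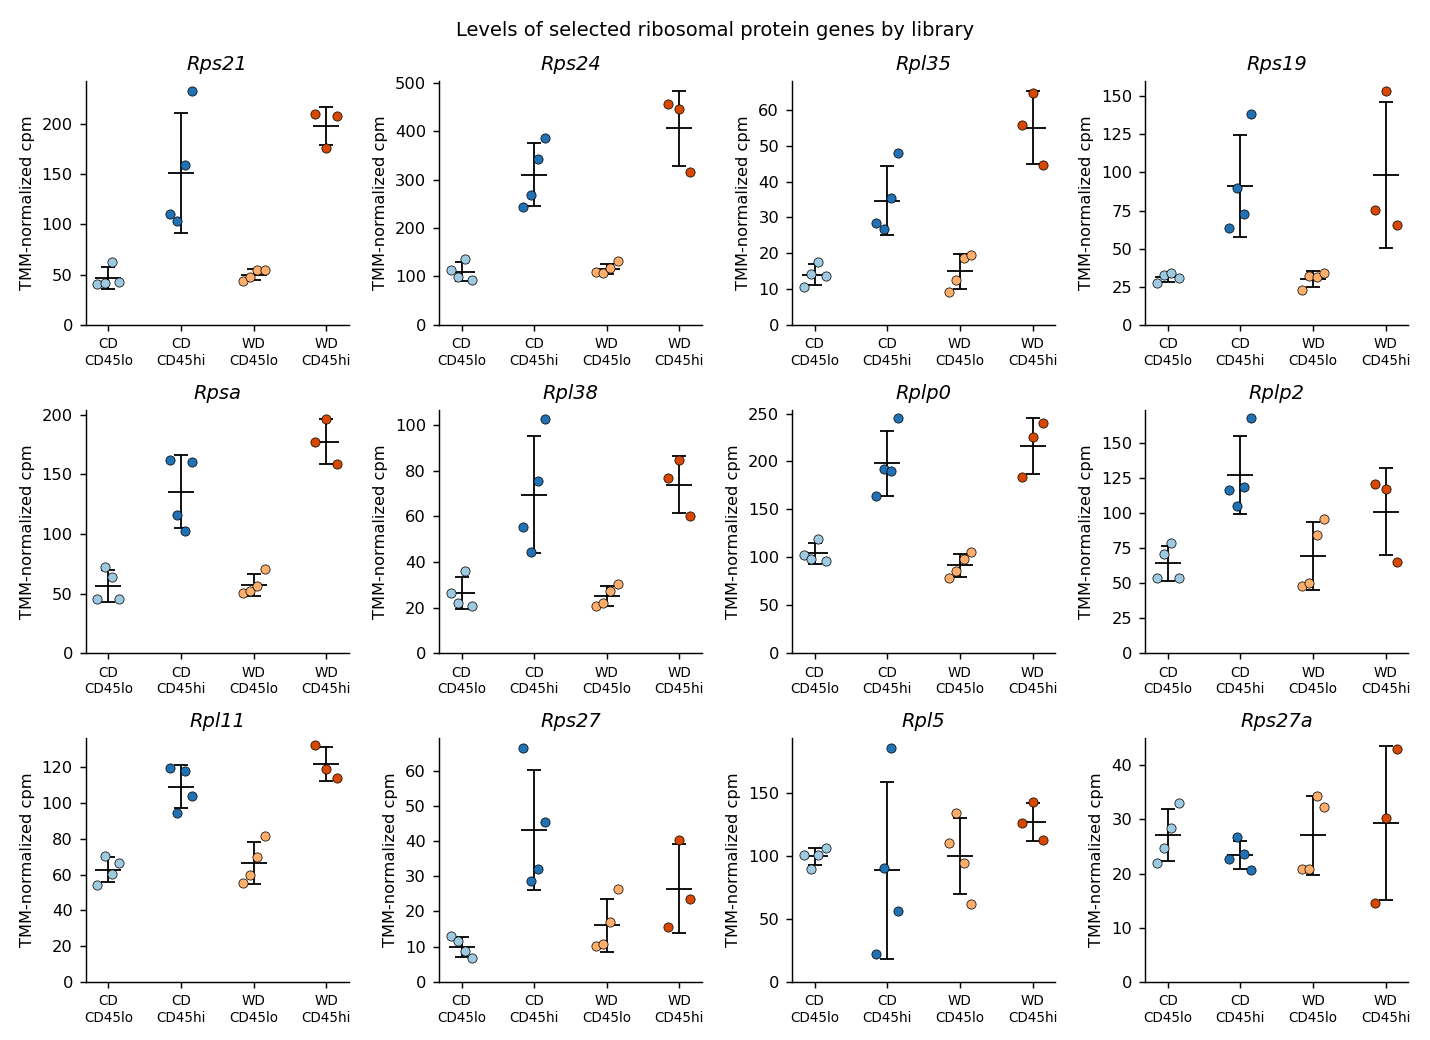
Level of 12 ribosomal protein genes (normalized cpm, each panel from 0) in each library, by diet and CD45 level, with the group mean ± SD. *Rps21*, *Rps24*, *Rps19*, *Rpsa*, *Rpl38*, *Rplp0* and *Rpl11* keep the CD45hi points above the CD45lo points on both diets, and those of *Rpl5* and *Rps27a* overlap.

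On the CD the genes with the lowest values were *Rps27a*, *Rpl5*, *Rpl12* and *Rpl27a*, and on the WD they were *Rps27a*, *Rpl27a*, *Rpl12* and *Rplp1*, followed by *Rpl5*. *Rps27a*, which encodes ubiquitin fused to a ribosomal protein, had log2 fold changes of -0.21 (SE 0.351, FDR = 0.826) on the CD and 0.12 (SE 0.378, FDR = 0.898) on the WD. *Rpl27a* had values of 0.06 and 0.17 and *Rpl12* of -0.08 and 0.26. None of them passed on either diet. In CD-fed mice *Rps27a* was at 22.6, 26.8, 23.7 and 20.7 cpm in CD45hi and 22.003, 24.8, 28.4 and 33.1 cpm in CD45lo libraries. In WD-fed mice it was at 14.6, 30.3 and 43.1 cpm in CD45hi and 20.9, 20.8, 34.4 and 32.3 cpm in CD45lo libraries. The levels of *Rpl5* were 22.4, 90.2, 186 and 56.3 cpm in CD45hi and 101.2, 89.97, 101.05 and 107 cpm in CD45lo libraries on the CD. On the WD they were 126, 143 and 113 cpm in CD45hi and 110.3, 134, 94.05 and 62.1 cpm in CD45lo libraries. The fractions overlapped for both genes on both diets, and the CD45hi libraries of CD-fed mice differed widely among themselves for *Rpl5*. Of the expected counts given to each gene and its sequence copies together, *Rps27a* held 47.3%, *Rpl5* 19.4%, *Rpl12* 17.8% and *Rpl27a* 40.3%.

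RSEM divides reads that match several genes among them, so sequence copies of a member bear on its count. A search of the coding sequences against the annotated transcripts found 744 copies of 71 members, of which 566 had a count in some library. Members held 73.3% of the counts of all these families. For 46 tested members at least 90% of the family's counts lay on the member, and for 19 members under 50% did. *Rps12* was the extreme case, at 0 in every library, while *Rps12-ps3*, with the same coding sequence, had a mean of 777 counts. The *Rps12* family summed to 95.3, 102, 132 and 114 cpm in CD45hi and 55.5, 45.1, 70.9 and 49.6 cpm in CD45lo libraries on the CD. In WD-fed mice it summed to 161, 116 and 153 cpm in CD45hi and 45.4, 48.8, 52.6 and 61.4 cpm in CD45lo libraries. The CD45hi libraries were above the CD45lo libraries on both diets. For *Rpl5* the copy *Gm15500* had a mean of 6195 counts, for *Rps6*, a substrate of the S6 kinases, *Rps6-ps4* had 4855, and for *Rpl12* *Gm10275* had 1512.

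Members with at least 90% of their family's counts, where copies take few reads, had a median log2 fold change of 0.98 on the CD (37 of 46 called) and 1.24 on the WD (40 of 46 called). Members with less had medians of 1.04 and 1.06, with 19 and 16 of 29 called. When each member's counts were summed with those of its copies, a choice made after seeing the data, 26 of these 29 were called on either diet, and the lowest value became 0.56 on the CD and 0.42 on the WD. Over all 76 genes 63 and 66 were then called as higher, as were 874 and 921 of all 14851 tested genes. Of the 13 members called on neither diet, 9 held under 90% of their family's counts, against 29 of all 75. *Rpl5* moved from -0.17 and 0.34 to 0.85 and 1.02, *Rpl12* from -0.08 and 0.26 to 0.73 and 1.35, and *Rps6* from 0.49 and 0.97 to 0.89 and 1.32. *Rps27a* reached 0.56 and 0.58 and *Rpl27a* 0.61 and 0.76. The values of *Rps27*, 2.12 and 0.73 on its own, became 1.54 and 1.30, and those of *Rpl35* became 1.14 and 2.05. A sum also counts any transcript that a copy makes of its own, which these data do not separate.

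**Figure D4:**
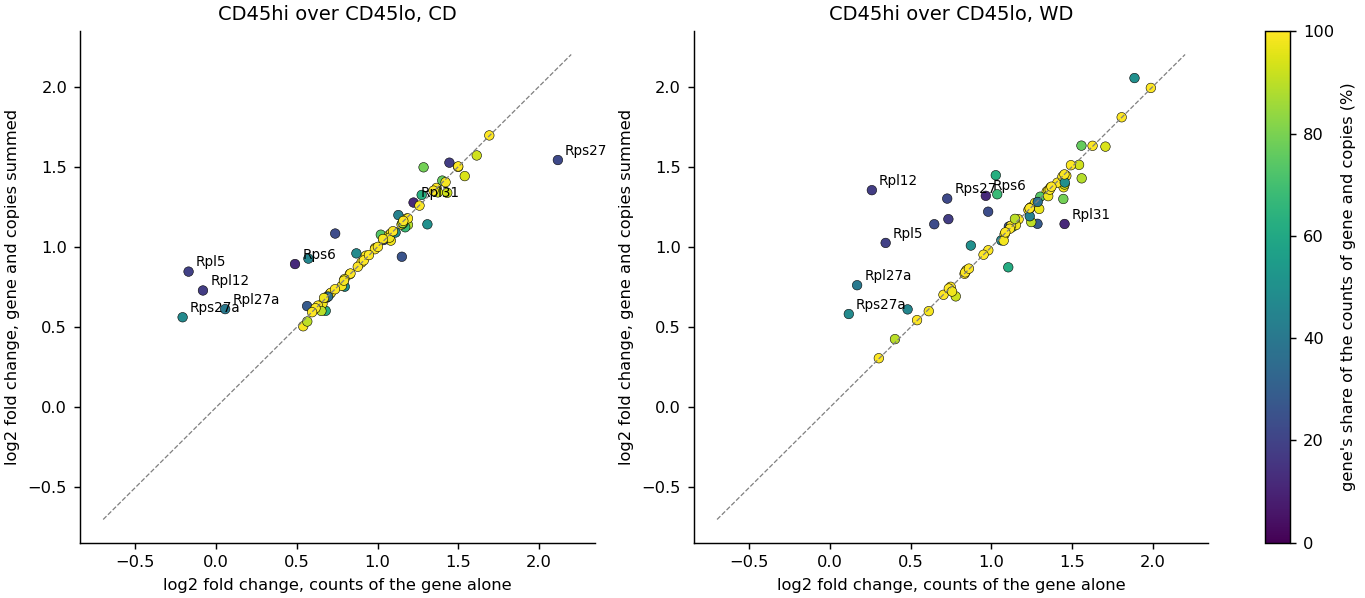
Log2 fold change between CD45hi and CD45lo cells for each ribosomal protein gene on its own (horizontal) and with the counts of its sequence copies added (vertical), for each diet. Points off the diagonal are genes whose copies held a large share of the counts, and *Rpl5*, *Rpl12*, *Rpl27a* and *Rps27a*, at the left on both diets, moved up to 0.56 or more, while *Rplp1*, at 0.30 on the WD, stayed at 0.31.

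Levels per length were compared in TPM, which is scaled by transcript length, as deposited. Over all 15 libraries *Rps4x* had the highest mean, 922 TPM, before *Rps24* (916), *Rpl10* (737), *Rps15* (720.4) and *Rpl30* (695). In CD45hi and CD45lo cells *Rps4x* was at 1045 ± 59.97 and 874 ± 123 TPM on the CD and 983 ± 96.9 and 803 ± 50.4 TPM on the WD (SD, n = 4, 4, 3 and 4). *Rps24* was at 1162 ± 189 and 575 ± 109 TPM and at 1447 ± 235 and 611 ± 34.7 TPM in the same order. In CD45hi cells of CD-fed mice the means of the pair differed by less than the SD of *Rps24* and by more than that of *Rps4x*. *Rps4x* was the higher in CD45lo cells on both diets. Apart from *Rps12*, the lowest means were those of *Rps16* (40.3), *Rpl31* (40.6), *Rpl15* (48.5), *Rpl12* (58.6) and *Rpl27a* (71.7). All 5 held under 50% of the counts of their families, so that these values do not measure all mRNA of the protein. The order of the highest also rests on the counts given to each gene alone. With copies summed, and not scaled by length, *Rpl10* was at 437 to 1081 cpm and *Rps4x* at 306 to 700 cpm over the 15 libraries. The 76 genes took 3.07, 2.11, 3.25 and 2.11% of all TPM in CD45hi and CD45lo cells on the CD and on the WD. On the TPM scale the median log2 difference of all genes shifted to -0.43 on the CD and -0.52 on the WD, and that of the members was 0.51 and 0.60, or 0.94 and 1.12 above all genes. On this scale (limma-trend on log2(TPM + 1)) 30 members were called on the CD and 39 on the WD, all higher. Over all genes the share of higher calls depended on the scale, with 891 of 1202 and 931 of 1365 calls higher in the counts, 567 of 1881 and 590 of 2606 in TPM, 717 of 1184 and 762 of 1521 with upper-quartile factors, and 900 of 1570 and 902 of 1557 in limma-voom, on the CD and the WD.

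Members are short, and transcript length moved with the difference between the fractions. The deposited lengths used here were those of replicate 1 of the CD45hi libraries of CD-fed mice. For the 75 genes they ran from 255 to 1917 bases with a median of 696, and 63 of the genes were under 1000 bases. The median of all tested genes was 2216 bases. Across the members the log2 fold change had a Pearson correlation with length of -0.46 on the CD and -0.19 on the WD (Spearman -0.47 and -0.28, n = 75 genes of the same libraries). Among other genes with a mean of at least 20 cpm, the 57 shorter than 600 bases had a median of 0.55 on the CD and 0.98 on the WD, against 1.15 and 1.36 for the 27 members of that length. At 600 to 800 bases the medians were 0.29 and 0.35 for 112 other genes and 1.04 and 1.09 for 23 members. At 800 to 1000 bases they were 0.22 and 0.25 for 152 other genes and 0.74 and 1.08 for 13 members. At 1000 to 1500 bases they were 0.06 and 0.15 against 0.69 and 0.75 for 9 members, and from 1500 bases on they were 0.00 and 0.04 against 1.10 and 1.29 for 3 members. The members' median exceeded that of other genes in all 5 length classes on both diets. With library offsets that remove the trend with length, chosen after seeing the data, 39 members were called on the CD and 42 on the WD, with medians of 0.70 and 0.83, and 6 and 10 exceeded 1.5-fold. Over all 14967 genes 1145 and 1335 were then called, and 564 and 703 past 1.5-fold. The part of RNA quality or fragment size in this trend was not tested.

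**Figure D5:**
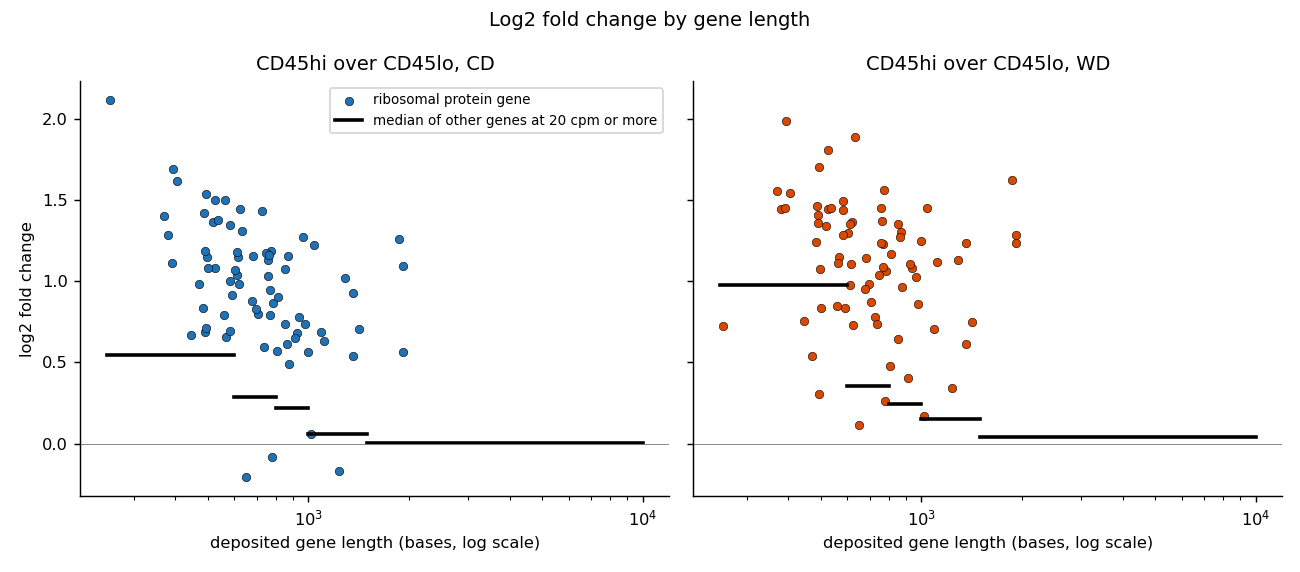
Log2 fold change between CD45hi and CD45lo cells against deposited transcript length (bases, log axis) for the ribosomal protein genes and for other genes with a mean of at least 20 cpm, by diet. The medians of other genes fall from 0.55 and 0.98 in the shortest class to 0.00 and 0.04 in the longest, and those of the ribosomal protein genes lie above them in each class.

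Between the diets no member was called. In CD45hi cells 0 of the 75 genes passed an FDR of 0.05 (edgeR quasi-likelihood F test, 0.254% of all genes called, 0.0601% as higher and 0.194% as lower), 7 had an unadjusted p under 0.05 (17.6% of all genes), and DESeq2 called 0 (6.7% of all genes, 8 members with an unadjusted p under 0.05). The median log2 fold change, WD over CD, was 0.17 against -0.02 over all genes, and 54 of 75 values were above 0 (48.5% of all genes). All 3 WD libraries were above all CD libraries for *Rpl31*, *Rpl8* and *Rps13* (2.58% of all genes) and below them for 0 members (3.19%). The largest values were those of *Rpl35*, 0.67 (SE 0.359, FDR = 0.349), and *Rps2*, 0.63 (SE 0.213, FDR = 0.150). *Rps2* encodes a small-subunit protein that helps keep decoding accurate. It was at 92.9, 125, 119.7 and 188 cpm in CD-fed and 209, 233 and 171 cpm in WD-fed mice, and the diets overlapped through replicate 4 of the CD. Without the library least like its own group on each diet, replicate 4 on the CD and replicate 1 on the WD, *Rps2* was the 1 member called, at 0.84 (SE 0.202, edgeR FDR = 0.0483). In that fit, chosen after seeing the data, 290 of all 14736 tested genes were called. With only 1 of these libraries left out, 0 members were called. *Rpl8*, at the centre of the large subunit near the site of peptide bond formation, was at 96.9, 124, 62.5 and 125 cpm in CD-fed and 141, 126 and 166 cpm in WD-fed mice. *Rps13* was at 54.1, 36.9, 51.7 and 36.1 cpm in CD-fed and 74.3, 55.01 and 76.4 cpm in WD-fed mice. Neither gene passed the test between the diets (FDR = 0.264 and 0.270). With the counts of copies added, *Rps13* was at 152, 98.7, 137 and 95.4 cpm in CD-fed and 183, 132 and 234 cpm in WD-fed mice. There the diets overlapped, as they did for *Rpl31* with its copies, at 252 to 331 and 227 to 352 cpm. *Rpl8* stayed without overlap. The lowest values were those of *Rpl29*, -0.63 (SE 0.257, FDR = 0.217), and *Rps27*, -0.70 (SE 0.468, FDR = 0.463). *Rps27* was at 0.01 once its copies were added.

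In CD45lo cells the members' median difference between the diets was 0.00, as was that of all genes, with 37 of the 75 values above 0. None passed an FDR of 0.05 in edgeR (0% of all genes) or DESeq2 (0.0267%), and 0 had an unadjusted p under 0.05 (0.822% of all genes). The values ran from -0.37 for *Rps6* (SE 0.328) to 0.69 for *Rps27* (SE 0.430). Every WD library was above every CD library for *Rpl27* and below for *Rpl21* (1.13 and 1.29% of all genes). The test of whether the difference between CD45hi and CD45lo cells depended on the diet called 0 members (0.00668% of all genes), with DESeq2 also at 0 (1.26%), and 2 had an unadjusted p under 0.05 (10.1% of all genes). These were *Rps2*, with an interaction of 0.68 (SE 0.292, FDR = 0.443), and *Rps27*, with -1.39 (SE 0.636, FDR = 0.472). The members' median interaction was 0.15, against -0.04 over all genes, and 56 of 75 values were above 0 (48.3% of all genes).

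Other genes of the translation machinery were taken from lists. Ribosomal protein genes that the symbol rule does not reach were also measured. *Fau*, which encodes a ubiquitin-like protein fused to a ribosomal protein (1.03 on the CD and 1.70 on the WD), and *Rps3a1* (0.80 and 1.13) rose on both diets. Among 5 tested paralogs of members, 0 were called on the CD, and *Rpl36al* rose on the WD, at 1.23 (FDR = 0.00857), with a value of 0.46 on the CD. The log2 fold changes of *Rps27l*, *Rpl22l1* and *Rpl7l1* were 1.45, 1.42 and -0.36 on the CD and 1.35, 0.84 and 0.63 on the WD. *Rpl39l* was at 0.0220 ± 0.0440 cpm (SD, n = 4) in CD45hi cells of CD-fed mice, below the level of 3 counts. Of 19 translation factors and other genes with TOP mRNAs, 10 rose on the CD (median 0.66) and 9 on the WD (median 0.60), and 0 fell. Of all genes 5.95 and 6.22% were called as higher on the CD and the WD. The elongation factors *Eef1a1* (0.67 and 1.12) and *Eef1b2* (1.14 and 1.22) rose on both diets, as did *Tpt1* (0.89 and 1.22) and *Npm1*, a nucleolar chaperone (0.67 and 1.17). *Eif3h*, a subunit of an initiation factor, rose on the WD, at 1.40 (FDR = 0.00167), and was at 0.65 (FDR = 0.117) on the CD. None of the genes of these lists was called between the diets.

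The other steps of translation were read against all genes, of which 5.95% were called as higher and 2.08% as lower on the CD, and 6.22 and 2.9% on the WD. Of 27 other initiation factor genes, *Eif3a* rose on both diets (0.73 and 0.91) and *Eif2s3x* on the WD (1.22), and the list's medians were 0.00 and 0.17. Of 41 genes of ribosome biogenesis, which make and process rRNA, 0 were called on the CD (median -0.28) and *Ncl*, which encodes nucleolin, rose on the WD (0.78, median -0.03). Of 75 nuclear genes for mitochondrial ribosomal proteins, *Mrpl33* was called on each diet (1.16 and 1.38), and the medians were -0.14 and 0.24. The 75 cytosolic genes had 56 calls on each diet, and the 75 mitochondrial ones had 1. Of 13 genes of the mTOR and Myc pathways, *Mxd1*, a partner of Max that opposes Myc, rose on both diets (3.30 and 2.75) and *Max* on the CD (1.06). *Rps6kb1*, which encodes an S6 kinase, and *Rptor*, a subunit of mTORC1, fell on the WD (-0.78 and -0.80). Of 11 genes that rescue or restrain ribosomes, *Eef2k*, the kinase that inhibits elongation factor 2, fell on both diets (-0.89 and -0.95) and *Gspt1*, a termination factor, on the CD (-0.73). Of 15 mitochondrially encoded genes tested, 14 rose on the CD and 13 on the WD, with medians of 1.15 and 1.19.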

How the data were processed

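RNA was sequenced from 15 sorted cell samples after poly(A) selection, as 75 bp paired-end reads. The authors trimmed the reads and quantified them with RSEM (version 1.2.12) on mm10. The files hold, for each gene, the expected count, which the authors deposited without normalization, together with the deposited TPM, effective length and gene length in bases. RSEM shares reads that match several genes among them. Libraries were demultiplexed with bcl2fastq (version 2.18.0.12, from the submitters' processing notes). Samples were grouped by their labels, and no column was left unmapped (0).

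Expected counts were rounded and tested in edgeR (version 4.0.16, R 4.3.3), with 1 fit over the 4 groups, TMM factors (0.862 to 1.11), the quasi-likelihood F test and glmTreat against 1.5-fold. A gene was tested if 2 or more libraries reached 1 cpm, which left 14967 of 38924. FDR values are Benjamini-Hochberg adjusted over all of them, and log2 fold changes are those of edgeR. Each SE is the log2 fold change over the root of its F statistic. Sequence copies were transcripts with at least 90% identity to a member's coding sequence over at least 150 bases or 80% of it (blastn 2.17.0). Only genes annotated as pseudogenes, or with symbols of *Gm* or *BC* and a number or with -ps, were kept. The listed paralogs and the ribosomal protein genes outside the rule were left out, and each copy was assigned to its best-matching member. Alternatives were DESeq2 (1.42.0), limma (3.58.1), other scalings, filters, replicate blocks, left-out libraries, summed copies and length offsets. Scripts were tested on simulated data. Replicates differed by more than sampling noise, with a chi-square per degree of freedom of 21.3 to 139.

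The members and gene lists were chosen with earlier results of these data known. Genes named are those with the 8 highest and 8 lowest changes between fractions, the 5 highest and lowest between diets in CD45hi cells and the 3 in CD45lo cells, those past 1.5-fold, the 5 highest and lowest in TPM, and members with a role of their own. From the other lists the paralogs and ribosomal protein genes outside the rule are named, and up to 5 genes past 1.5-fold. The values of some genes that the rule would name are not reported here. The remaining members, *Rpl24* and genes of lists with few calls were named after their values were seen. The symbol *Rpl24*, which the files give to *Zbtb11*, was moved to its own identifier by the GENCODE M21 names. The labels do not say which library ran on which sequencer or which libraries share an animal. The study's methods sorted CD11b+CD45+ brain cells into both fractions, while the fit without a block treated all libraries as independent. The p-values measure the spread between these samples.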

Additional observations from a re-analysis of the deposited data

Results flagged for a closer look

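In groups of 4 libraries, 9 of 177 sets of values, for the summed share and 58 named members, had a library set apart from the other 3 by Dixon's test. Chance gives about 1 in 20 such sets, and the flags fell on 8 libraries. The 76 genes took 1.31% of the counts in replicate 4 of the CD45hi cells from CD-fed mice, against 1.01 to 1.04% in the other 3. In the same group *Rpl31* was low in replicate 3, at 23.7 cpm against 33.8 to 35.6, and *Rps25* was low in replicate 2, at 219 cpm against 256 to 262. In the CD45lo cells of CD-fed mice, replicate 3 was high for *Rpl17*, at 141 cpm against 111 to 115, and for *Rps21*, at 62.9 cpm against 40.4 to 42.6. Replicate 4 of that group was low for *Rpl27*, at 11.8 cpm against 17.2 to 17.8. In the CD45lo cells of WD-fed mice, *Rpl10* was high in replicate 4, at 325 cpm against 236 to 248. There *Rps3* was high in replicate 2, at 207 cpm against 176 to 179, and *Rps4x* in replicate 3, at 365 cpm against 325 to 331. No cause of these values was tested.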

How the results depend on the processing

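Under every setting tried, 0 members were called as lower in CD45hi cells and the members' median stayed above 0 on both diets. The number called moved most in TPM, to 30 on the CD. The number past 1.5-fold, 22 on the CD and 37 on the WD, was 6 and 19 in limma-voom, 10 and 18 with upper-quartile factors, 0 and 2 in TPM, and 6 and 10 with length offsets. It was 15 and 33 with DESeq2. Without both CD45hi libraries least like their groups it was 12 on the CD, and 1 member was called between the diets in CD45hi cells. The median of all genes shifted to -0.12 and -0.21 with upper-quartile factors, -0.22 and -0.27 in limma-voom and -0.43 and -0.52 in TPM. The summed ratio of CD45hi to CD45lo on the WD moved to 1.91 without mitochondrially encoded genes and to 1.54 in TPM. Leaving out single libraries gave 40 to 60 calls on the CD (10 to 25 past 1.5-fold), 46 to 59 on the WD (23 to 41 past 1.5-fold), 0 between the diets and 0 in the interaction, and summed ratios of 1.51 to 1.67 and 1.67 to 1.78. For the comparisons of the fractions, the counts over all genes in these fits also moved and are given above.

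With the replicate number as a block, 39 and 42 members were called by the numbers in the titles and 39 and 36 by those in the file names, which differ for WD-fed mice. Past 1.5-fold, 9 and 18, and 10 and 7, were called. In the same order, 786 and 718, and 770 and 637, of all 14967 genes were called. Of these genes, 417 and 398, and 412 and 353, were called past 1.5-fold. Deviations of same-numbered libraries correlated at 0.00978 to 0.0695 on the CD, where differently numbered libraries ran from -0.0516 to 0.0455. On the WD same-numbered libraries ran from -0.0217 to -0.0037 by the titles and from -0.000466 to 0.0130 by the file names. All of these correlations are small and cannot settle whether the numbers pair the samples, so the counts with a block are given beside those without.

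Genes whose sign changed were uncalled before the change. On the CD, *Rpl12* became 0.73, *Rpl5* 0.85 and *Rps27a* 0.56 with copies summed, and *Rpl12* was 0.0697 without both libraries. *Rpl27a* became -0.10 with upper-quartile factors, -0.24 in TPM and -0.0502 with length offsets, and in TPM *Rpl36al* was at -0.0469, *Rps2* at -0.18 and *Rps6* at -0.0331. On the WD in TPM, *Rpl10* was at -0.0393, *Rpl12* at -0.67, *Rpl27a* at -0.64, *Rpl5* at -0.22, *Rpl7a* at -0.24, *Rpl7l1* at -0.19, *Rplp1* at -0.19, *Rps27a* at -0.45 and *Rps27l* at -0.0901. With length offsets *Rpl12* was at -0.0177, *Rplp1* at -0.17 and *Rps27a* at -0.24. With upper-quartile factors *Rpl27a* was at -0.0404 and *Rps27a* at -0.0919, and with the block by file numbers at -0.13 and -0.0907. *Rps27* between the diets became 0.00701 with copies. Left-out libraries moved *Rpl12* over -0.22 to 0.0679, *Rpl27a* over -0.0534 to 0.16 and *Rpl5* over -0.82 to 0.15 on the CD, and *Rpl27a* over -0.22 to 0.58, *Rpl7l1* over -0.15 to 1.04 and *Rps27a* over -0.27 to 0.44 on the WD. The cause was not tested. Summed copies, length offsets and the pair of left-out libraries were chosen after seeing the data.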
